A study of Mus musculus with 14 samples.

Results

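The genes described here are 9 regulators and markers of pallial and hippocampal field identity, namely Emx1, Emx2, Lhx2, Zbtb20, Prox1, Wfs1, Fibcd1, Spink8 and Pou3f1. They were chosen by symbol, with earlier results of these data known, among the 36118 genes of the deposited count table. All 9 passed the filter on low counts that left 16637 genes for testing. Hippocampal RNA came from 14 mice of C57/BL6 background (C57BL/6N in the methods) at postnatal day 15, with 1 library per mouse. WT-RA (n = 4) were wild-type pups kept in room air and WT-O2 (n = 4) wild-type pups kept in 85% O2. KO-RA (n = 3) and KO-O2 (n = 3) were pups homozygous for a Gsdmd allele inactivated with CRISPR/Cas9 in every tissue, under the same exposures. Exposure ran from postnatal day 1 to day 14, and the methods describe KO and WT pups as littermates from heterozygous parents. The comparisons asked how the genes differed with genotype and whether exposure to O2 changed them in either genotype.

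In the embryonic forebrain, the homeodomain factors Emx1, Emx2 and Lhx2 mark the pallium, the dorsal territory that forms the neocortex and the hippocampus, while other factors mark the subpallium that forms the striatum and septum. Within the hippocampus, Zbtb20 and Prox1 act later to set the identity of pyramidal and granule neurons. In the postnatal hippocampus Prox1 labels dentate granule neurons, whereas Wfs1, Fibcd1, Spink8 and Pou3f1 are enriched in pyramidal neurons of field CA1. Several of these genes are also expressed outside the hippocampus, so their level in dissected tissue depends on which cells it held.

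The targeted gene, Gsdmd, bears on the genotype labels. Its level was 1.87 ± 0.284 CPM (estimated counts scaled to a common library size, SD, n = 8) in the WT libraries and 1.29 ± 0.247 CPM (n = 6) in the KO libraries, a log2 fold change of -0.52 (q = 0.016 in edgeR). The ranges overlapped, since the lowest WT library was at 1.47 CPM and the highest KO library at 1.5 CPM. Within each exposure the KO libraries lay below the WT libraries, with q = 0.168 in room air and 0.0962 under O2 in edgeR. In room air the gap was very small, from 1.469 CPM in KO-RA mouse GSD490 to 1.471 CPM in WT-RA mouse GSD401. The paper reports that GSDMD protein was not detected by immunostaining in KO brains of either exposure. It also states, without showing the data, that qRT-PCR found no measurable Gsdmd transcripts in KO brains, whereas the KO libraries here held counts of the gene. The estimated counts, 22 to 63 per library, cover all transcripts of the gene, with or without the small deletion that inactivates it. Libraries held between 27272270 and 28257496 estimated counts. The treatment field for mouse GSD408 says room air, whereas its title and its column name say hyperoxia, and it was treated as WT-O2. All WT mouse numbers (GSD398 to GSD408) precede all KO numbers (GSD489 to GSD496), so that genotype and number range cannot be told apart. In WT-RA, mouse GSD400 had the highest summed level of neocortical markers, 648 CPM against 380 to 470 CPM in the other 3 mice, and the lowest thalamic sum. Mouse GSD401 had the lowest Prox1 and Zbtb20 of all libraries. Mouse GSD398, also of WT-RA, had the highest thalamic and oligodendrocyte sums of all libraries, 985 and 9618 CPM. Several results that rest on GSD400 or GSD401 are given with and without them, while GSD398 was left out only in the fits that drop 1 mouse at a time.

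Sequences upstream of the start sites were read because 8 of the 9 genes differed in the same direction and Emx1 did not differ detectably. RefSeq (GRCm38.p6) matched 7 of the 9 genes, Lhx2 and Prox1 with several start sites. The 250 bases before the start site are shown for the Emx pair, for Fibcd1 as a CA1 gene and for Zbtb20. Zbtb20 was read at 1 start site only, and was the only one of the 7 for which no window read held a motif. Motifs on either strand are in capitals. Of 32851 promoters of the same length, 32.7% held the GC box GGGCGG and 33.8% held the letters CCAAT of the CCAAT box. The homeodomain core TAATTA was in 4.84%, the E-box with letters CAGATG in 14.4%, and the TATA box with letters TATAAA in 12.4%. Only GC boxes overlapped one another.
Emx1 (chr6:85187681-85187930, plus strand): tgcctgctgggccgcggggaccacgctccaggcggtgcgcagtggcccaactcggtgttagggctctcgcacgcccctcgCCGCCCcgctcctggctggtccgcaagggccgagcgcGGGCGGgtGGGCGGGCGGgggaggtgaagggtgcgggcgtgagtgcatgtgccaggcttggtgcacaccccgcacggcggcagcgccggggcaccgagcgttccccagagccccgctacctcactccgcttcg
Emx2 (chr19:59458440-59458689, plus strand): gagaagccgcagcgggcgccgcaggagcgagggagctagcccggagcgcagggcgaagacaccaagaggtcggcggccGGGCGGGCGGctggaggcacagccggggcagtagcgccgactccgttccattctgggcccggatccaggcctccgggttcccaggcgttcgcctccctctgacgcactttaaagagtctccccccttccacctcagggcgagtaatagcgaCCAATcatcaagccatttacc
Fibcd1 (chr2:31846006-31846255, minus strand): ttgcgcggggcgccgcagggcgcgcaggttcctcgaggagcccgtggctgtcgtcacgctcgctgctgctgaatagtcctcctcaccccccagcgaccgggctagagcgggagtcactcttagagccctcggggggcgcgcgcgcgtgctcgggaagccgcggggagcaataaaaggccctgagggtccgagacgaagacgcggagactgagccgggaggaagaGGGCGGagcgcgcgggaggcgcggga
Zbtb20 (chr16:43247034-43247283, plus strand): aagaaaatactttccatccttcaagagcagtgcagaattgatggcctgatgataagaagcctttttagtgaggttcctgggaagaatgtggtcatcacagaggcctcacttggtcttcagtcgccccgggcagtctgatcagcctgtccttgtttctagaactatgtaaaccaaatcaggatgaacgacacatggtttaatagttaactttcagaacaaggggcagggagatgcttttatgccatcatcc
The Emx1 window held 4 GC boxes, some overlapping, at a GC content of 75.6%, and the Emx2 window 2 overlapping GC boxes and 1 CCAAT box at 67.2%. The Fibcd1 window held 1 GC box at 71.6% GC. The Zbtb20 window had 44.8% GC, below the median of 52.4% over all promoters. Matches of letters are a description of the windows and do not show a bound site.

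With both exposures averaged, 8 of the 9 genes were higher in KO than in WT hippocampus and none was lower. Emx1, the exception, had nearly the same mean in both genotypes. Calls were made with the quasi-likelihood test of edgeR, adjusted by Benjamini and Hochberg's method over all genes tested, at a log2 fold change of at least 0.32 in size, p below 0.05 and adjusted p (q) below 0.1. Over all genes tested, 4.11% were called higher in this comparison and 7.94% lower. The median log2 fold change of the 9 genes was 0.87, against -0.0076 over all genes. For 7 of the 9, every KO library lay above every WT library, which was so for 2.45% of all genes tested. Because the 9 genes were chosen with earlier results known, the shares over all genes are a description and no test of the set. Wfs1 was the called gene whose ranges overlapped.

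**Figure D1:**
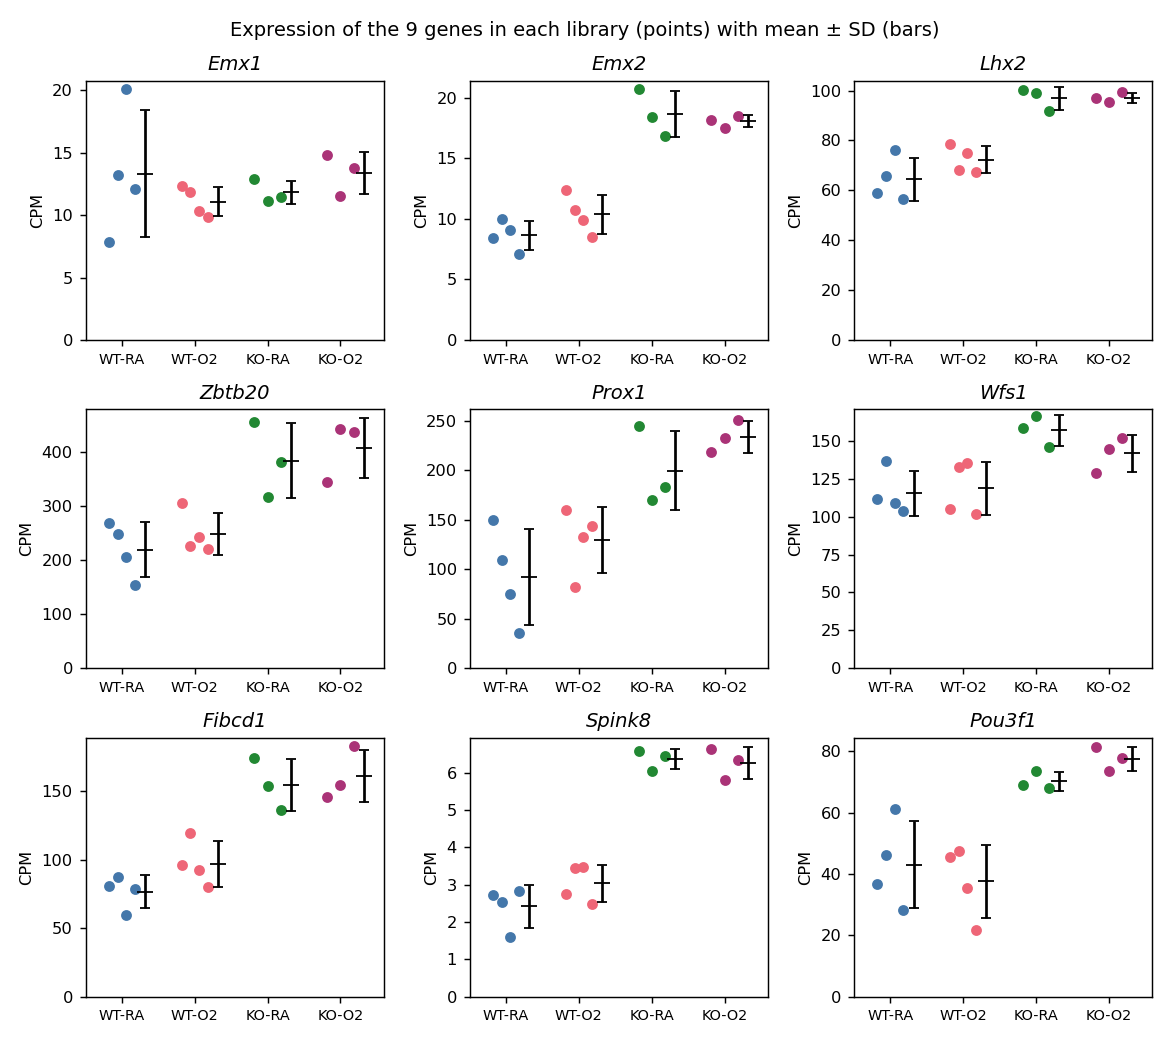
Expression in CPM (vertical axis, linear from 0) of each of the 9 genes in the 14 libraries, with 1 point per mouse coloured by group and the black bar giving mean ± SD of the group. The panels of 7 genes show the 6 KO libraries entirely above the 8 WT libraries, while the Emx1 panel shows all 4 groups between 7.86 and 20.1 CPM.

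In room air, the KO-RA libraries had 8 of the 9 genes called higher, at a background of 3.75% of all genes called higher. Each of these 8 was also without overlap between KO-RA and WT-RA, a pattern found in 8.62% of genes. Under O2, 6 of the 9 were called higher in KO-O2 mice, at a background of 2.51%, and 7 did not overlap with WT-O2, as did 8.53% of all genes. There Prox1 and Wfs1 were higher by 1.81-fold and 1.20-fold without being called (q = 0.162 and 0.231 in edgeR). The difference between the genotype effects in room air and O2 was tested as an interaction, and none of the 9 genes was called, nor was any of the 16637 genes. At an unadjusted p below 0.05, none of the 9 and 673 of all genes (4.05%) passed the interaction test in edgeR, and DESeq2 called none of the 9. The intervals of that difference were wide, for Prox1 from -1.26 to 0.75 on the log2 scale, so that effects of like size under both exposures were not shown. The 3 genotype comparisons share libraries, since the averaged one uses all of them.

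**Figure D2:**
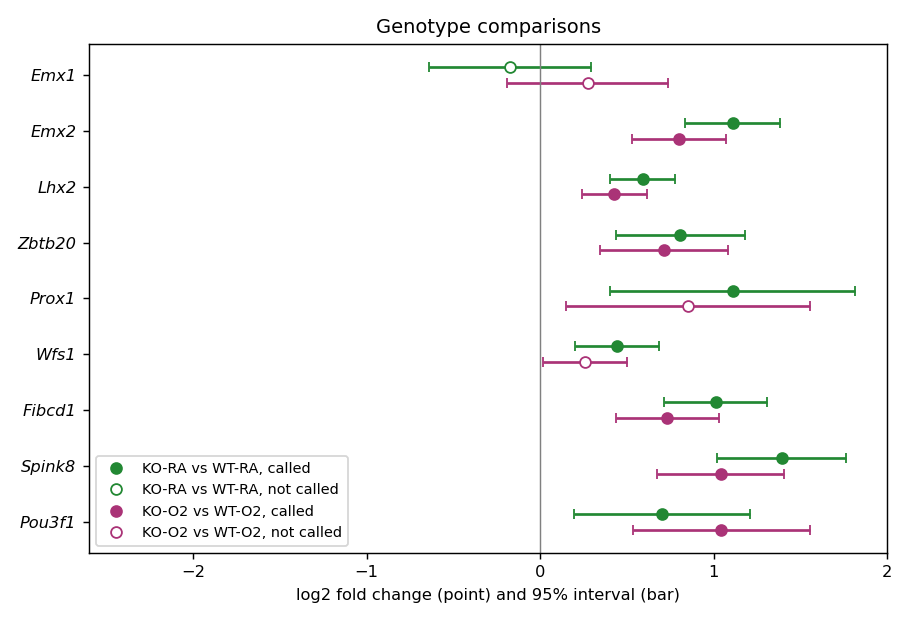
Log2 fold change (horizontal axis) of the 9 genes in KO-RA vs WT-RA (green) and KO-O2 vs WT-O2 (purple), with 95% intervals as bars and filled points for called genes. Emx1 lies on both sides of 0, from -0.17 to 0.27, and the other 8 genes lie between 0.26 and 1.39 in both comparisons.

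The Emx homeobox genes went apart. Emx2 (ENSMUSG00000043969), which is required for the embryonic hippocampus to reach its normal size, was at 8.44, 10, 9.05 and 7.14 CPM in WT-RA mice and at 12.4, 10.7, 9.88 and 8.48 CPM in WT-O2 mice. It was at 20.7, 18.4 and 16.9 CPM in KO-RA and at 18.2, 17.5 and 18.5 CPM in KO-O2 mice. The lowest KO library was thus above the highest WT library, GSD404. The averaged difference was 1.94-fold, a log2 fold change of 0.96 ± 0.09 (SE), with q = 9.53e-06 in edgeR. Part of the Emx2 exon sequence, 7.81% of its 31-base words, also lies in the antisense gene Emx2os, which was not analysed here, and the libraries' strandedness was not given, so reads of the pair could not be told apart there.

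Emx1 (ENSMUSG00000033726), the paralog expressed throughout the developing and mature dorsal pallium, was at 7.86, 13.2, 20.1 and 12.1 CPM in WT-RA and at 12.3, 11.8, 10.3 and 9.89 CPM in WT-O2. It was at 12.9, 11.2 and 11.4 CPM in KO-RA and at 14.9, 11.6 and 13.8 CPM in KO-O2. WT-RA mice GSD398 and GSD400 were the lowest and the highest of all 14 libraries, with every KO library between them. In KO against WT, the log2 fold change was 0.05, with a 95% interval from -0.28 to 0.38 and q = 0.872 in edgeR. Its direction was not stable, since the value was -0.17 in room air and 0.27 under O2, and without mouse GSD400 the room air value turned to 0.10.

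Within each library, the log2 level of Emx2 minus that of Emx1 was between 0.29 and 0.72 in the 6 KO libraries. It was below those values in every WT library, from -1.15 in GSD400 to 0.10 in GSD398.

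Lhx2 and Zbtb20 were higher in KO, with Lhx2 the less variable. Lhx2 (ENSMUSG00000000247), a LIM-homeodomain selector gene of cortical identity, was at 58.9, 65.7, 76.2 and 56.6 CPM in WT-RA and at 78.6, 68.3, 74.96 and 67.4 CPM in WT-O2. It was at 100.2, 98.9 and 91.7 CPM in KO-RA and at 97.1, 95.2 and 99.2 CPM in KO-O2. The KO values spanned 1.09-fold and lay above all WT values. Averaged over exposures, the log2 fold change was 0.51 ± 0.06 (SE), a 1.42-fold difference, with q = 7.24e-05 in edgeR.

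Zbtb20 (ENSMUSG00000022708), a zinc finger repressor that sets CA1 pyramidal identity and is also found in astrocytes, was at 269, 249, 206 and 155 CPM in WT-RA and at 306, 225, 243 and 221 CPM in WT-O2. It was at 455, 316 and 381 CPM in KO-RA and at 344, 443 and 436 CPM in KO-O2. The groups did not overlap, but the gap between GSD404 of WT-O2 and GSD490 of KO-RA was narrow. The averaged log2 fold change was 0.76 ± 0.12 (SE), or 1.69-fold, with q = 0.000613 in edgeR. The call in KO-O2 vs WT-O2 was lost without KO-O2 mouse GSD495 (q = 0.109). Of 6 astrocyte markers, 2 were called higher in KO and 4 were not called, among them Aldh1l1 with a log2 fold change of -0.18, and their summed level was 4199 to 4900 CPM in KO against 3479 to 4078 CPM in WT. Its part in the Zbtb20 result was not tested.

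Prox1 (ENSMUSG00000010175), the homeobox gene that maintains dentate granule cell identity, varied the most. It was at 149.9, 109, 74.6 and 35.8 CPM in WT-RA and at 159, 82.2, 132 and 144 CPM in WT-O2. It was at 245, 170.0 and 183 CPM in KO-RA and at 218, 232 and 251 CPM in KO-O2. The WT libraries spanned 4.45-fold with GSD401 the lowest, the KO libraries 1.47-fold, and no KO library fell into the WT range. In KO against WT, the log2 fold change was 0.98 ± 0.23 (SE), or 1.97-fold, with q = 0.00858 in edgeR. In room air it was called (log2 fold change 1.11, q = 0.0468), but without KO-RA mouse GSD489 q was 0.179. Its room air log2 fold change ran from 0.63 to 1.45 over 25 other settings tried, and from 0.84 with 1 mouse left out. Prox1 was called in room air in 21 of these 25 settings. In KO-O2 vs WT-O2 it was not called, although leaving out WT-RA mouse GSD401 or GSD398, neither of which is in that comparison, gave q = 0.0383 and 0.0818.

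The other dentate genes listed were also mostly higher, with 5 of 9 called higher in KO and none lower (median log2 fold change 0.82). The 4 with the largest change were Tdo2, which encodes the tryptophan-degrading enzyme of dentate granule neurons (log2 fold change 1.21, q = 0.000226), the desmosomal gene Dsp (1.11, q = 0.0074), the proneural factor Neurod1 (1.08, q = 0.00012) and the lactase gene Lct (1.05, q = 0.00447), all in edgeR. Lct and Dsp, like Prox1, were lowest in GSD401, at 3.98 and 3.95 CPM. The calls were unevenly spread over exposures, at 7 of 9 in KO-RA vs WT-RA and 2 of 9 in KO-O2 vs WT-O2, and none of the 9 passed the interaction test. Calb1, which labels granule neurons and their mossy fibres, was called in room air (log2 fold change 0.54, q = 0.00937 in edgeR) but not in the averaged comparison, where its log2 fold change was 0.24.

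Of the CA1 genes, Spink8 rose the most. Spink8 (ENSMUSG00000050074), a Kazal-type serine protease inhibitor, was at 2.73, 2.54, 1.59 and 2.83 CPM in WT-RA and at 2.75, 3.44, 3.47 and 2.49 CPM in WT-O2. It was at 6.57, 6.05 and 6.44 CPM in KO-RA and at 6.62, 5.80 and 6.34 CPM in KO-O2. The lowest KO library exceeded the highest WT library, and the averaged difference of 2.32-fold (log2 fold change 1.22 ± 0.12 SE, q = 1.78e-05 in edgeR) was the largest of the 9 genes. It rested on few reads, with 45 to 185 estimated counts per library, so counting error alone was 14.9% in the lowest.

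Fibcd1 (ENSMUSG00000026841), a transmembrane receptor that binds acetylated sugars, was at 81.0, 87.1, 60.0 and 78.8 CPM in WT-RA and at 96.0, 119, 92.2 and 80.0 CPM in WT-O2. It was at 174, 154 and 136 CPM in KO-RA and at 146, 154 and 183 CPM in KO-O2. All KO libraries were above GSD405, the highest WT library. Averaged over exposures, the log2 fold change was 0.87 ± 0.10 (SE), or 1.83-fold, with q = 3.77e-05 in edgeR.

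Pou3f1 (ENSMUSG00000090125), a POU-domain factor of CA1 and upper cortical layer neurons, was at 36.6, 46.4, 61.3 and 28.2 CPM in WT-RA and at 45.6, 47.7, 35.4 and 21.8 CPM in WT-O2. It was at 69.0, 73.7 and 68.0 CPM in KO-RA and at 81.3, 73.5 and 77.7 CPM in KO-O2. WT values spanned 2.81-fold, from GSD408 to GSD400, and KO values 1.20-fold above them. The averaged log2 fold change was 0.87 ± 0.17 (SE), or 1.83-fold, with q = 0.00209 in edgeR. The call in KO-RA vs WT-RA (log2 fold change 0.70, q = 0.0778) was lost when any of the mice GSD398, GSD399, GSD401, GSD489, GSD490 or GSD496 was left out, with q from 0.112 to 0.183. The antisense gene Gm2164 shares 7.88% of the 31-base words of Pou3f1, so reads of the pair could not be told apart there.

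Wfs1 (ENSMUSG00000039474), which encodes the endoplasmic reticulum protein wolframin and outlines CA1, had the smallest called difference. It was at 112, 137, 109 and 103.8 CPM in WT-RA and at 105, 132, 135 and 102 CPM in WT-O2. It was at 158, 166 and 146 CPM in KO-RA and at 128, 145 and 152 CPM in KO-O2. KO-RA lay above WT-RA, but KO-O2 mouse GSD491 was within the range of WT-O2. In KO against WT, the log2 fold change was 0.35 ± 0.08 (SE), or 1.28-fold, with q = 0.00668 in edgeR. It stands just inside the threshold of 0.32 on the log2 scale, and without GSD400 and GSD401 together its log2 fold change was 0.31 and the call was lost.

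Other field markers did not move as a block. Of 6 further CA1 genes, Dcn, which encodes the proteoglycan decorin, and Mpped1 were called higher in KO (log2 fold change 0.64 and 0.34). Of 7 CA2 genes, the neurotrophin gene Ntf3 and the signalling regulator Rgs14 were called higher (0.92 and 0.62) and Pcp4 lower (-1.29). Of 5 CA3 genes, Iyd and the kainate receptor subunit gene Grik4 were called higher (0.64 and 0.57) and Coch lower (-1.25). Pcp4 is also expressed outside the hippocampus, in striatum and thalamus, and the part of such tissue in its lower level was not tested.

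To compare levels between the genes, CPM was divided by the length of the exons in kilobases. In WT libraries the order of this level per kilobase was Wfs1 at 30.9 ± 4.0, Fibcd1 at 18.3 ± 3.59, Lhx2 at 15.6 ± 1.82, Prox1 at 13.2 ± 5.17, Pou3f1 at 10.48 ± 3.24, Zbtb20 at 7.61 ± 1.45, Emx1 at 5.59 ± 1.66, Spink8 at 3.32 ± 0.722 and Emx2 at 3.17 ± 0.539 (SD, n = 8). Wfs1 stood above Fibcd1 by more than their spread, whereas every neighbouring pair further down this order overlapped within 1 SD of each mean. In KO libraries Wfs1 was again first, at 39.4 ± 3.44, with Fibcd1 second at 33.2 ± 3.65, and Prox1 at 25.8 ± 3.95 was above Lhx2 at 22.1 ± 0.721 (SD, n = 6). Emx1, at 5.78 ± 0.685, was the lowest there, below Emx2 at 6.12 ± 0.434, by less than their spread. Lengths are unions of GENCODE exons and Zbtb20 has 21 transcripts. With the longest transcript alone, Lhx2 was at 24.1 per kilobase in WT, above Fibcd1. In KO, Lhx2 was then at 34.2, above Fibcd1 at 33.2 and Prox1 at 27.4, and Emx1 at 8.08 was above Emx2 at 6.30, so these orders depend on the length used.

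With all mice included, the 9 genes varied more among WT than among KO mice. The SD of log2 CPM within groups was larger in WT for all 9, for example 0.70 against 0.21 for Prox1 and 0.50 against 0.07 for Pou3f1, where it was larger in WT for 61.8% of all genes tested. Without GSD401 the WT value was 0.46 for Prox1, and for Zbtb20 it was 0.21, below the 0.24 in KO, so that 8 of the 9 genes were then more variable in WT, against 58.7% of all genes. Without GSD400 the WT value of Spink8 went from 0.31 to 0.19. Without both mice the WT value was 0.40 for Prox1, and 8 of the 9 were more variable in WT, against 52.5% of all genes. The lowest or highest WT-RA value belonged to GSD400 for Emx1, Lhx2, Fibcd1, Spink8 and Pou3f1 and to GSD401 for Emx2, Lhx2, Zbtb20, Prox1, Wfs1, Spink8 and Pou3f1. Without both mice, 7 of the 9 genes were called in the averaged comparison, 6 in KO-RA vs WT-RA and 7 in KO-O2 vs WT-O2. The shares of all genes called in that fit are not given here, so these counts stand without a background.

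**Figure D3:**
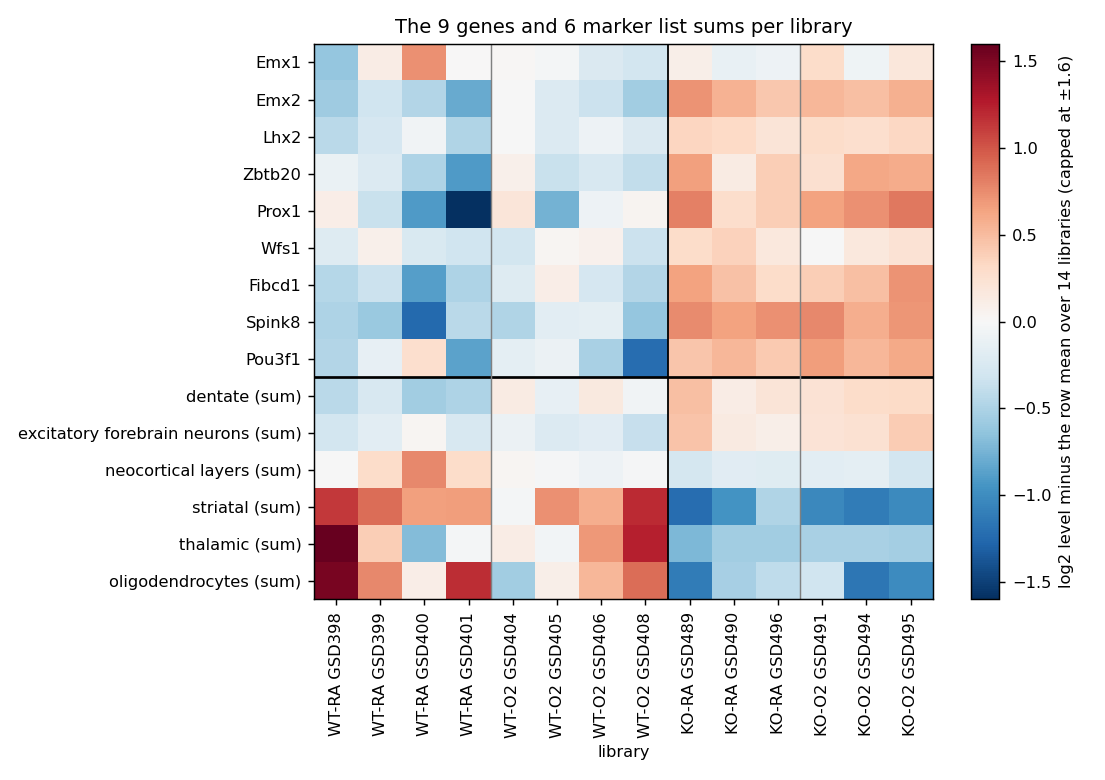
Log2 level of the 9 genes (upper rows) and of 6 summed marker lists (lower rows) in each of the 14 libraries, as the difference from the row mean, in colour from blue (lower) to red (higher). The 6 KO columns are red for the called genes, except Wfs1 in GSD491, which is close to the row mean, and blue for the striatal, thalamic and oligodendrocyte sums, the latter with values from 1510 to 2696 CPM.

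Markers of tissue outside the hippocampus moved with genotype in the opposite direction. All 10 striatal genes were called lower in KO, and their summed level was 525 to 731 CPM in WT-RA, 326 to 765 CPM in WT-O2, 143 to 239 CPM in KO-RA and 153 to 164 CPM in KO-O2. The genotypes did not overlap (log2 difference of the sums -1.70, exact two-sided permutation p = 0.000333, the smallest that 8 against 6 libraries allow, or 0.00566 adjusted over 51 sums). The lists were written with earlier results of these data known, so the permutation p of this and the other sums is descriptive only. Pde10a, Ppp1r1b and Rgs9, signalling genes of striatal projection neurons, were among the most abundant.

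The thalamic list was lower too, with 8 of 12 genes called. Its sum was 186 to 985 CPM in WT-RA, 293 to 714 CPM in WT-O2, 183 to 205 CPM in KO-RA and 207 to 210 CPM in KO-O2 (log2 difference -0.99, exact permutation p = 0.00899, adjusted 0.0432). The WT range reached into the KO range through GSD400. Plekhg1, Prkcd, Rora and Slc17a6 were its most abundant genes. Of all striatal and thalamic genes, Sh3rf2 in GSD489 and Gbx2 in GSD496 were at a count of 0, and every other gene of both lists had counts in all KO libraries.

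Other lists moved as well. All 5 oligodendrocyte genes and all 4 cholinergic genes were called lower in KO, as were 5 of 10 neocortical layer genes. The oligodendrocyte sum was 2276 to 9618 CPM in WT and 1510 to 2696 CPM in KO libraries, the cholinergic sum 6.29 to 21.9 against 3.90 to 5.41 CPM, and the neocortical sum 360 to 648 against 311 to 342 CPM. Of 5 excitatory forebrain neuron genes, 3 were called higher, and their sum was 5104 to 6781 CPM in WT against 7033 to 9044 CPM in KO. The log2 differences of the microglial, endothelial and choroid plexus sums were 0.11, -0.08 and -0.40, with adjusted p = 0.0836, 0.638 and 0.794 in the exact permutation test. The inhibitory neuron sum was 558 to 924 CPM in WT and 623 to 683 CPM in KO, with 3 of 6 genes called lower. In bulk tissue, fewer cells of a type and less RNA per cell cannot be told apart, and the part of these lists in the results for the 9 genes was not tested.

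A further fit took the log2 sums of the striatal and thalamic lists as covariates. With them, none of the 9 genes was called in any of the 3 genotype comparisons, and 11 genes were called over the whole table in the averaged one. The sums and genotype were nearly the same variable (R squared of genotype on both sums 0.885, n = 14), and a fit cannot tell them apart. Averaged over exposures, the log2 fold change of Spink8 stayed at 1.20 (unadjusted p = 0.0104), while those of Fibcd1 and Prox1 were 0.62 and 0.63, Emx2 0.38, Wfs1 0.34, Zbtb20 0.28, Pou3f1 0.26, Lhx2 0.21 and Emx1 -0.24. After adjustment over all genes in edgeR, q for Spink8 was 0.487.

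**Figure D4:**
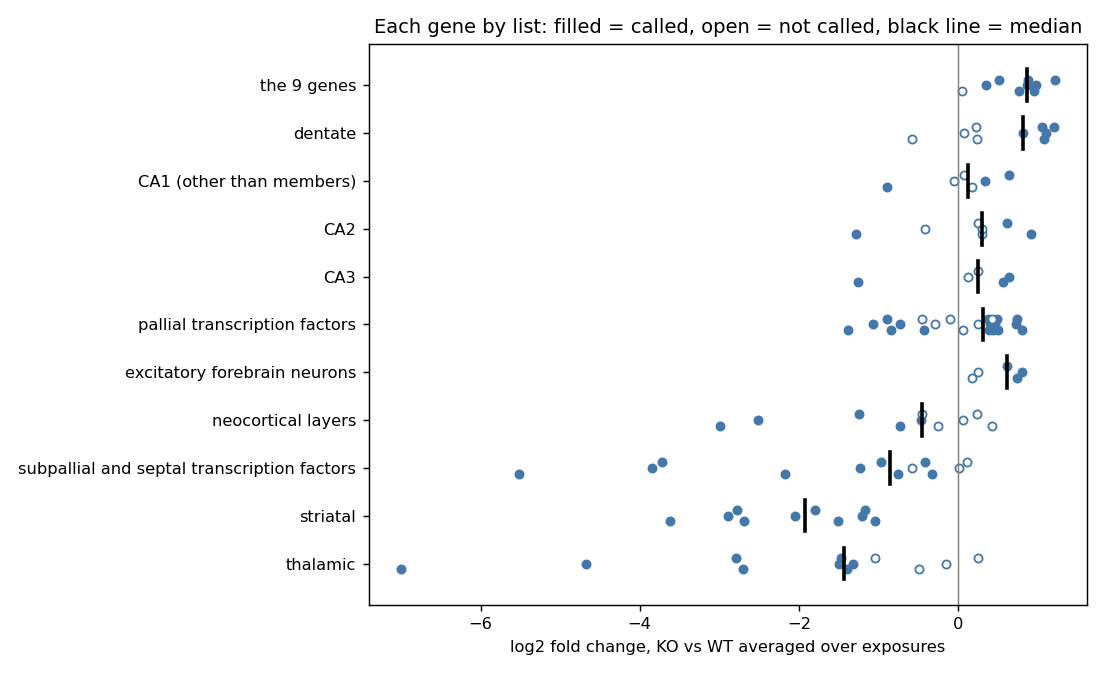
Log2 fold change in KO vs WT averaged over exposures (horizontal axis) of each gene in 11 lists, with filled points for called genes and a black line at the median of the list. The median lies at 0.87 for the 9 genes and 0.82 for the dentate list, and at -1.92 and -1.44 for the striatal and thalamic lists.

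Among 22 further pallial transcription factors, 10 were called higher in KO and 6 lower, with a median log2 fold change of 0.31. Decreases in Mef2c (-1.39), Lef1 (-1.07) and Nr2f2 (-0.85) were among the largest changes. Mef2c is an activity-regulated factor of cortical neurons and Lef1, a Wnt pathway factor, marks thalamic neurons in the postnatal brain. Mef2c was at 561 CPM in GSD400, above 174 to 337 CPM in the other WT libraries and 103 to 121 CPM in the KO libraries.

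Among 12 subpallial and septal factors, 9 were called lower and none higher (median -0.86). The 4 with the largest change were Lhx8, Isl1, Six3 and Gbx1, which mark cholinergic, striatal and septal lineages. Isl1 was at 1.48 to 4.98 CPM in WT and at most 0.39 CPM in KO libraries, and Six3 at 3.43 to 23.8 CPM against 0.19 to 1.73 CPM. Lhx8 was at 0.35 to 1.76 CPM in WT and had a count of 0 in 3 of 6 KO libraries, and Gbx1 was at most 0.77 CPM in any library.

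Exposure to O2 gave no call among the 9 genes in either genotype. In WT-O2 vs WT-RA, where 0.643% of all genes were called, 7 of the 9 were higher, and Fibcd1 (1.26-fold) and Emx2 (1.20-fold) passed at an unadjusted p of 0.0212 and 0.0496 in the fit of edgeR across all genes, as did 12.2% of all genes, with q = 0.303 and 0.409. DESeq2 called none of the 9 either. The ranges of WT-O2 and WT-RA overlapped for all 9 genes, and were apart for 5.99% of all genes. In KO-O2 vs KO-RA, where 0.012% of all genes were called, log2 fold changes ran from -0.15 for Wfs1 to 0.23 for Prox1, none of the 9 passed at an unadjusted p below 0.05, against 4.86% of all genes, and DESeq2 called none. Averaged over genotypes, none of the 9 was called at a background of 0.337%, nor was any by DESeq2, and none passed at an unadjusted p below 0.05, against 11.8% of all genes.

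**Figure D5:**
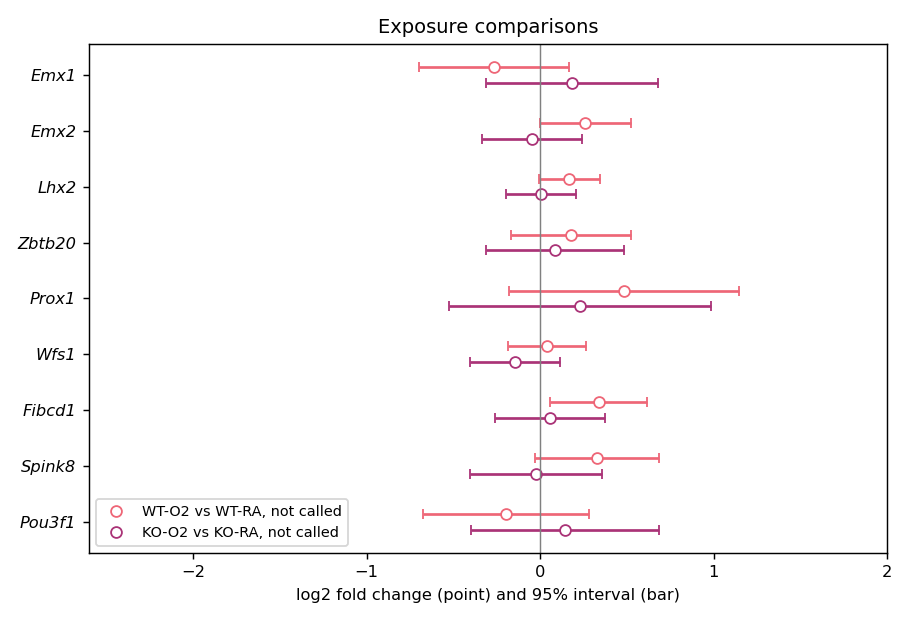
Log2 fold change (horizontal axis) of the 9 genes in WT-O2 vs WT-RA (light red) and KO-O2 vs KO-RA (purple), with 95% intervals as bars and open points because no gene was called. In WT the values run from -0.27 for Emx1 to 0.49 for Prox1, and in KO from -0.15 to 0.23.

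The intervals show what size of change was compatible with these libraries. For Lhx2, the narrowest, the 95% interval in WT-O2 vs WT-RA ran from -0.01 to 0.34 on the log2 scale. For Prox1 it ran from -0.18 to 1.15, so that a change of 2-fold in WT was within it. Without GSD400 and GSD401, the Prox1 value of 0.49 fell to -0.0049. The WT-O2 vs WT-RA and KO-RA vs WT-RA comparisons share the WT-RA mice, and a value common to both is no separate observation.

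The dentate list had 1 gene called with exposure in WT. All 9 genes of the list were higher in WT-O2, and the summed level was 310 to 378 CPM against 231 to 284 CPM in WT-RA, without overlap. The exact permutation p was 0.0286, the smallest that 4 against 4 libraries allow, and 0.104 after adjustment over 51 sums. It is descriptive only, since the dentate list was also written with earlier results of these data known. Only Calb1, a calcium buffer of granule neurons, was called (log2 fold change 0.55, q = 0.0623 in edgeR). Prox1, which was 1.40-fold higher, was not (q = 0.584). The neocortical sum was 360 to 391 CPM in WT-O2 and 380 to 648 CPM in WT-RA, with Cplx3 and Rorb called lower, and its part in the dentate difference was not tested.

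For each called gene, the genes whose profile over the 14 libraries was most like it were found by the root mean square difference of centred log2 CPM. The nearest to Emx2 were Gpr161 (0.13), Epha6 (0.13) and Neurod6 (0.16), and the nearest to Lhx2 were Sept9 (0.08), Msra (0.09) and Sbk1 (0.09). The nearest to Zbtb20 were Shisa6, Ccbe1 and Nr3c2 (0.12 to 0.15), and those to Fibcd1 were Thsd4, Gpr161 and Nr3c2 (0.15 to 0.16). Prox1 was followed by Dsp (0.18), Ntf3 (0.24) and Tdo2 (0.24), of which Dsp and Tdo2 were in the dentate list and Ntf3 in the CA2 list.

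Spink8 was followed by Klk8, Slc9a2 and Gpr161 (0.23 to 0.24), so that Gpr161, a receptor of the primary cilium, was among the nearest of 3 genes. Pou3f1 was followed by Chrna5, Sebox and Rnf39 (0.22 to 0.23), and Wfs1 by Arhgap12, Dyx1c1 and 2310033P09Rik (0.12 to 0.13). All libraries, both genotypes included, enter this measure, so a gene that differs with genotype by a like amount comes close.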

How the data were processed

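Hippocampal RNA of 14 mice was sequenced as bulk libraries. The deposited values are estimated counts per gene, which the authors made with Kallisto on a GRCm39 (Ensembl 104) reference and summed to genes with tximport. Tool versions, count scaling and strandedness were not given in the sources used here. Symbols were found for 35825 of 36118 genes.

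Estimated counts were rounded, filtered with filterByExpr and scaled by TMM, and 16637 genes were fitted with edgeR 4.0.16 (R 4.3.3, limma 3.58.1), with 1 coefficient for each of 4 groups and all 14 libraries. The quasi-likelihood test was used with Benjamini-Hochberg adjustment over all genes tested. CPM was computed with TMM-scaled library sizes, log2 CPM with a prior count of 2, and SE and 95% intervals from the F statistic. Summed marker levels were compared by exact two-sided permutation tests. DESeq2 1.42.0, other scalings, filters, thresholds and groupings, and each mouse left out in turn, were tried. In counts simulated for 16637 genes, the KO vs WT comparison averaged over exposures found 85 of 100 genes set to 1.5-fold and 99 of 100 set to 2-fold, and WT-O2 vs WT-RA found 69 and 94. False calls among the unchanged genes numbered 11 and 17. Only these genes were changed in the simulation, whereas in the data 683 genes were called higher and 1321 lower in KO vs WT.

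The 9 genes and all lists were chosen with earlier results of these data known. Named from the lists were at most the 4 called genes of each field or factor list with the largest change in KO vs WT, the 4 most abundant striatal and thalamic genes, and the 3 genes nearest to each called gene. Aldh1l1, Calb1, Cplx3, Rorb, Sh3rf2 and Gbx2 were named after their values were seen. Some genes that this rule would name are not reported here. Exon lengths and shared 31-base words came from GENCODE M21 on GRCm38, which is not the build of the counts. The spread without mice GSD400 and GSD401 was added after seeing the data. Each library is 1 mouse, and about 41 to 43.2% of estimated counts per library were not whole numbers before rounding.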

Additional observations from a re-analysis of the deposited data

Results flagged for a closer look

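A total of 56 groups of 4 libraries were examined for a library far from the others, with a gap to the nearest library above 0.83 of the whole range of the group. By chance about 1 in 20 groups would be marked, and 2 were, neither of them for one of the 9 genes. In WT-RA, the summed level of the 4 cholinergic genes was 6.29 CPM in mouse GSD400 and 15.5 to 16.6 CPM in the other 3 mice. In WT-O2, the summed level of the 5 endothelial genes was 178 CPM in mouse GSD408 and 149.7 to 152.7 CPM in the other 3 mice. GSD400 was also the WT-RA mouse with the highest Emx1 and Pou3f1 and the lowest Fibcd1 and Spink8, and GSD408 the WT library with the lowest Pou3f1.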

How the results depend on the processing

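No paired analysis was possible because mouse numbers are not shared between groups. With striatal and thalamic sums as covariates, the number of the 9 genes called fell to 0 in KO vs WT averaged over exposures, KO-RA vs WT-RA and KO-O2 vs WT-O2. Leaving out 1 mouse at a time, 8 were called in the averaged comparison, 6 to 8 in room air and 5 to 7 under O2, and 0 in the exposure and interaction comparisons. A fold threshold of 1.5 left 6 in the averaged comparison, without Wfs1 and Lhx2. The shares of all genes called with a mouse left out or at this threshold are not given here, so these counts stand without a background. The median log2 fold change of all genes was -0.0076 with TMM, 0.0033 with DESeq2 size factors and -0.0251 with library size alone. Groups of 3 or 4 mice limit what exposure could show.

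Signs that turned belonged to Emx1 in the genotype comparisons and otherwise to exposure or interaction values that were not called, and the cause was not tested. With covariates, log2 fold changes were -0.24 (averaged) and -0.073 (KO-O2 vs WT-O2) for Emx1, -0.013 for Lhx2 and -0.0091 for Zbtb20 in KO-O2 vs KO-RA, and 0.07 for Emx1 in O2 vs RA averaged over genotypes. With library size alone, Lhx2 in KO-O2 vs KO-RA was at -0.0073. With GSD408 as room air, Pou3f1 was at 0.14 in WT-O2 vs WT-RA, 0.14 in O2 vs RA and -6e-04 in the interaction, and Emx1 at 0.022 in O2 vs RA. Without GSD400 and GSD401, a choice made after seeing the data, Emx1 was at 0.17 in KO-RA vs WT-RA, 0.073 in WT-O2 vs WT-RA and 0.13 in O2 vs RA. In WT-O2 vs WT-RA, Zbtb20 was then at -0.059, Prox1 at -0.0049 and Wfs1 at -0.070. Pou3f1 was then at 5e-04 in O2 vs RA, and the interaction was 0.15 for Zbtb20 and 0.24 for Prox1.

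Leaving out 1 mouse at a time, Emx1 ran from -0.035 to 0.19 averaged, -0.35 to 0.10 in KO-RA vs WT-RA, -0.45 to 0.0049 in WT-O2 vs WT-RA and -0.13 to 0.095 in O2 vs RA. In WT-O2 vs WT-RA, Wfs1 ran from -0.027 to 0.13 and Pou3f1 from -0.36 to 0.022, and Pou3f1 ran from -0.11 to 0.083 in O2 vs RA. In KO-O2 vs KO-RA, Emx2 ran from -0.11 to 0.032, Lhx2 from -0.033 to 0.028, Zbtb20 from -0.037 to 0.23, Fibcd1 from -0.044 to 0.15 and Spink8 from -0.068 to 0.028. The interaction ran from -0.22 to 0.048 for Zbtb20 and from -0.59 to 0.018 for Prox1.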
